A study of Homo sapiens with 6 samples.

Results

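Oxidative phosphorylation subunits were followed in P493-6 cells, a human B cell line that carries a c-Myc transgene repressed by tetracycline. The genes were chosen by symbol: human probe sets with 1 gene whose current symbol names a nuclear-encoded subunit of complexes I to V, or cytochrome c (CYCS). Assembly factors were left out, and where a gene had several probe sets, the one of highest mean log2 intensity stood for it. The rule found 85 genes, covered by 196 probe sets, among the 18244 genes named by at least 1 probe set. They were 36 genes of complex I, 3 of complex II, 9 of complex III, CYCS, 17 of complex IV and 19 of complex V.

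The cells had c-Myc expression released for 0 hours (low-Myc), 1 hour (mid-Myc) or 24 hours (high-Myc), with 2 arrays per group described as biological duplicates. For mid-Myc the growth note gives 0 hours and the treatment note 1 hour, and the treatment note was followed. All 3 groups are the same line with the same transgene, and the line is labelled as a B cell lymphoma. Synthetic ERCC RNAs were added by cell number, and 100 ng of total RNA was labelled for each Affymetrix array.

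The respiratory chain passes electrons from NADH (complex I) and succinate (complex II) through complex III and cytochrome c to oxygen at complex IV. Complexes I, III and IV pump protons across the inner mitochondrial membrane, and complex V, the ATP synthase, uses the return flow to make ATP. Complexes I, III, IV and V also hold subunits encoded by mitochondrial DNA, which were not analysed here because no probe set was named for them. c-Myc is known as a regulator of mitochondrial biogenesis genes.

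Every difference was taken on both of the scales that follow. On the per-cell scale, a curve fitted to the ERCC spike-ins was subtracted from each array, so that a value is relative to the number of cells. On the equal-median scale, the median human probe set was set to the same level on all arrays, so that a value is relative to that median. It lay at 44.5 to 50.2 intensity as deposited, below the median of 171 among the genes tested. On this scale the median gene tested stood at 7.32 and 7.27 (log2) in low-Myc and at 7.49 and 7.51 in high-Myc. Of the 85 genes, 82 passed a filter of a mean above 33.8 intensity and were tested among 12198 genes with limma. COX7A1, COX7B2 and COX8C, isoforms known from muscle or testis, stayed below it, with 21.5 to 28.4, 5.73 to 11.4 and 17.5 to 25.6 intensity over the 6 arrays.

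The promoters of CYCS and ATP5MC1 are shown because these genes had the largest differences between high-Myc and low-Myc, and that of ATP5MC2 because it encodes the same mature c-ring subunit as ATP5MC1 with a smaller difference. They are RefSeq sequences of GRCh38.p14, running from 250 bases before the start of the gene to 50 after it, 5′ to 3′ on the gene's strand. Capitals mark matches on either strand to CACGTG (an E-box, the site class bound by c-Myc and its partner Max), GCATGCGC (the core of the NRF1 site), CCGGAAG (GABPA core) or AAGATGG (YY1 core). CYCS lies at chr7:25125211-25125510 on the minus strand, ATP5MC1 at chr17:48892537-48892836 on the plus strand and ATP5MC2 at chr12:53676034-53676333 on the minus strand.
CYCS: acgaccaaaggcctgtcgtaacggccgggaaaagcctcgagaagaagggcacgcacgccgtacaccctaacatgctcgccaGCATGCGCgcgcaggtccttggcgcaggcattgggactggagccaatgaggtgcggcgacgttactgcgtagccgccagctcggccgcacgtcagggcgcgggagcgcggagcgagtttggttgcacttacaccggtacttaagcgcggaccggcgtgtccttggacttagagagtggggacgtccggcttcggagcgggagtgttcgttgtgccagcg
ATP5MC1: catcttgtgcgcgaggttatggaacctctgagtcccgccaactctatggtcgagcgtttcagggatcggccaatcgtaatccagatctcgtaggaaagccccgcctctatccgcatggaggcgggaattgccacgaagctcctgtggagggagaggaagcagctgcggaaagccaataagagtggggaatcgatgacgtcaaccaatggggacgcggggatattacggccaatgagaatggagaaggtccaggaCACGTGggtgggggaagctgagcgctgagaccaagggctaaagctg
ATP5MC2: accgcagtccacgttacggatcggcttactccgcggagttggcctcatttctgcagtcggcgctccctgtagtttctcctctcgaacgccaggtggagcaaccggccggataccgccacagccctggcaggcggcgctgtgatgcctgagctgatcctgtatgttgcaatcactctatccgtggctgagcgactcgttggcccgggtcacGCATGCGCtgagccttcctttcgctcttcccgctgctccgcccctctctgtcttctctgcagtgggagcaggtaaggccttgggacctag

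Of the 85 genes, 69 matched a promoter in the RefSeq table. The NRF1 core was found in 13 of these 69 promoters (18.8%), the YY1 core in 15 (21.7%), the GABPA core in 19 (27.5%) and the E-box in 7 (10.1%). Among 15843 promoters of protein-coding genes of the same length, the shares were 4.26%, 6.40%, 14.2% and 8.88% in that order. Among the 9953 promoters of genes tested on the arrays, they were 5.36% for NRF1, 7.75% for YY1 and 18.7% for GABPA, and 996 held an E-box. The E-box of ATP5MC1 began 5 bases into the gene, and the NRF1 cores began 169 bases before the start of CYCS and 40 bases before that of ATP5MC2. The 13 tested genes with an NRF1 core had a median difference between high-Myc and low-Myc of 1.13 (log2, equal-median scale), against 0.80 for the 54 without one. The medians were 0.83 with and 0.82 without a GABPA core, 0.83 with and 0.82 without a YY1 core, and 0.91 with and 0.80 without an E-box. A match describes letters in this window and not a bound site.

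The arrays of a group correlated at 0.996 across the tested genes. Their human probe sets had medians of 49.8 to 50.2 intensity in low-Myc, 44.5 to 45.6 in mid-Myc and 45.1 to 45.7 in high-Myc. At the brightness of the subunit genes, 15 ERCC probe sets were 2.56-fold lower in high-Myc against low-Myc as deposited, and after the curve they kept a median of -0.19 (log2, SD 0.25). All 7 B cell markers on the arrays were tested, with MS4A1 the brightest. Their summed intensity as deposited was 25908 to 26078 in low-Myc, 26650 to 27505 in mid-Myc and 17401 to 17518 in high-Myc. Per cell, 5 of the 7 were called higher and 1 lower in high-Myc against low-Myc, where 90.8% of all genes were higher. On the equal-median scale, 1 was higher and 6 were lower, where 26.0% of all genes were lower. Sums of the other lists are also of deposited intensities. Summed T and NK cell markers were 367 to 377 intensity in low-Myc, 330 to 366 in mid-Myc and 268 to 275 in high-Myc, and erythroid markers 129 to 132, 81.7 to 92.7 and 107 to 110 in the same order. Of 5 monocyte markers, 2 were tested and LYZ was brightest. Monocyte markers summed to 1293 to 1297 in low-Myc, 1323 to 1363 in mid-Myc and 460 to 471 in high-Myc. The sums of each list did not overlap between high-Myc and low-Myc. With 2 arrays against 2, such separation was common. On the equal-median scale, both high-Myc arrays were above both low-Myc arrays for 5489 of the 12198 genes tested. The T and NK cell and erythroid markers were dim, and without detection calls their presence was not established. The part of these marker differences in the results was not tested. The same mass of total RNA was labelled for each array, so a lower deposited sum is a smaller share of that RNA. Per cell, 5 of the 6 tested T and NK cell markers were called higher and 1 lower in high-Myc against low-Myc. Both erythroid markers tested were called higher, and of the 2 monocyte markers tested 1 was called lower and none higher. In bulk RNA, a change in the number of cells of a type and one in its RNA per cell cannot be told apart.

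After 24 hours of c-Myc, subunit genes of every complex stood higher relative to the median human probe set. On the equal-median scale, 74 of the 82 genes rose and 1 fell in high-Myc against low-Myc (limma, adjusted p under 0.05). Across all genes tested, 37.7% were called higher and 26.0% lower. The median difference was 0.81 on the log2 scale (1.75-fold), and that of all genes tested was 0.054. Of the 82 genes, 22 were at least 2-fold higher. On the per-cell scale, 80 of the 82 rose and none fell, where 90.8% of all genes were called higher and 2.53% lower. COX4I2 and ATP5MGL were the genes not called. The count was close to the background, and the median was 1.76 (3.38-fold), against 0.97 for all genes tested.

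**Figure D1:**
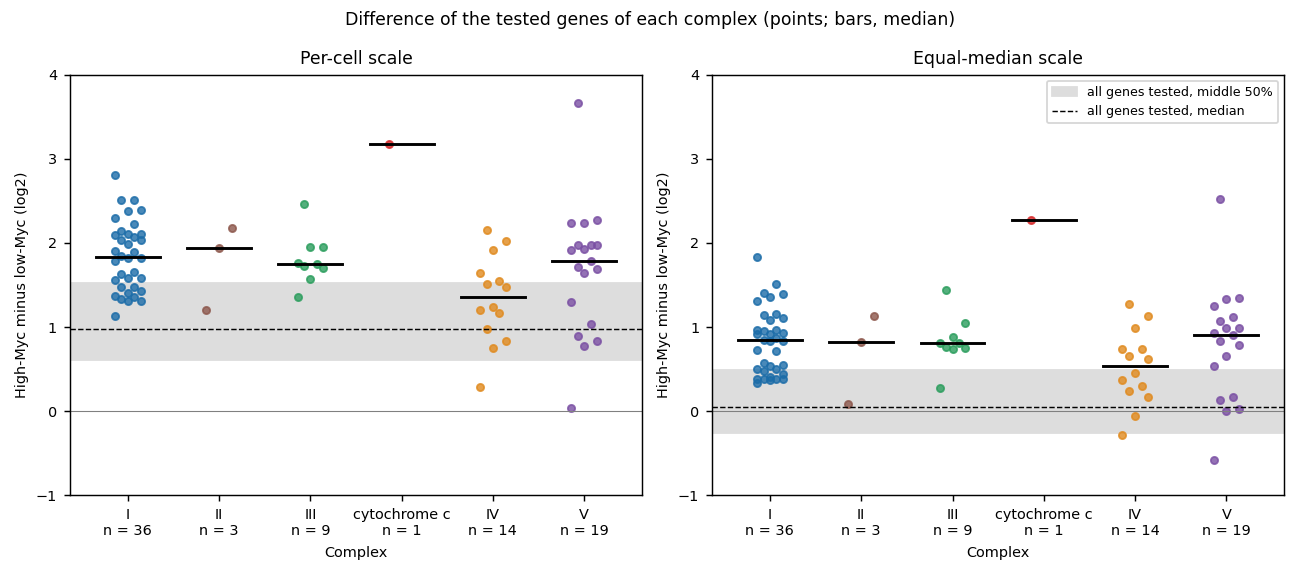
High-Myc minus low-Myc (log2) of the 82 tested genes by complex, on the per-cell scale (left) and the equal-median scale (right); points are genes, bars their medians, the grey band the middle 50% of all genes tested and the dashed line their median. On the equal-median scale, the medians of complexes I, II, III and V lie between 0.81 and 0.91, and that of complex IV at 0.54.

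By complex, the equal-median medians in high-Myc against low-Myc were 0.84 for complex I, 0.83 for complex II, 0.81 for complex III, 0.54 for complex IV and 0.91 for complex V. The count of genes that rose was 36 of 36 in complex I, 2 of 3 in complex II, 8 of 9 in complex III, 11 of 14 in complex IV and 16 of 19 in complex V. Genes of a complex are not replicates, so the complexes were compared by these values without a test. On the per-cell scale, the medians were 1.83, 1.94, 1.75, 1.36 and 1.78 for complexes I to V.

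Cytochrome c, the soluble carrier between complexes III and IV that also takes part in apoptosis, had one of the largest differences. CYCS had 1437 and 1427 intensity in low-Myc, 1539 and 1492 in mid-Myc and 6232 and 6298 in high-Myc. The high-Myc arrays stood far above the other 4, and the mid-Myc arrays were just above low-Myc. The high-Myc difference from low-Myc was 2.27 ± 0.042 (log2, equal-median, SE; 4.82-fold, limma adjusted p = 2.17e-13), larger than for 99.1% of the genes tested. On the per-cell scale it was 3.17 (9.02-fold). The other 2 CYCS probe sets gave 2.08 and 1.69 on the equal-median scale.

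In complex I, the entry point for electrons from NADH, every one of the 36 genes rose in high-Myc against low-Myc on both scales. With quantile normalization, 4 of these were not called, NDUFA1 at 0.071, NDUFB1 at 0.059, NDUFA13 at 0.074 and NDUFB4 at 0.074 (log2). With the mean of its probe sets, NDUFA13 was at 0.045 and not called. Another bright NDUFA13 probe set, at 2028 intensity, gave 0.30 on the equal-median scale. Its dim probe sets, at 74.4, 41.9 and 35.6 intensity, gave -0.11, -0.35 and -0.00089. NDUFAB1, the mitochondrial acyl carrier protein, had 1090 and 947 intensity in low-Myc, 1252 and 1161 in mid-Myc and 3581 and 3008 in high-Myc. Its difference in high-Myc against low-Myc was 1.83 ± 0.078 (log2, equal-median, SE; adjusted p = 1.35e-10, limma). NDUFB6, a subunit of the membrane arm, had 1096 and 933 in low-Myc, 1026 and 1145 in mid-Myc and 2602 and 2627 in high-Myc, a difference of 1.51 between high-Myc and low-Myc. For both genes, the high-Myc arrays stood above the other 4.

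The 6 core complex I genes on the arrays, which form the conserved part of the arm that takes electrons from NADH, had a median of 0.72 (log2, equal-median), and the 30 other subunits 0.84. NDUFS7 led the core genes at 1.31, with 1320 and 1356 intensity in high-Myc and 623 and 569 in low-Myc. NDUFV1, which binds NADH, differed by 0.96, NDUFS3 by 0.87, NDUFS8 by 0.57, NDUFS1 by 0.48 and NDUFV2 by 0.41. NDUFS6 and NDUFB7, accessory subunits, differed by 1.41 and 1.39.

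The smallest differences in complex I were those of NDUFB1 and NDUFA1, small membrane-arm subunits. NDUFA1 had 4092 and 3900 intensity in low-Myc, 4269 and 4352 in mid-Myc and 4536 and 4611 in high-Myc. Its difference in high-Myc against low-Myc was 0.33 ± 0.042 (log2, equal-median, SE; adjusted p = 7.88e-06, limma). NDUFB1 had 1738 and 1721 in low-Myc, 1946 and 1910 in mid-Myc and 1950 and 2107 in high-Myc, a difference of 0.37 between high-Myc and low-Myc. For both genes, the high-Myc and low-Myc arrays lay close together without overlapping.

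**Figure D2:**
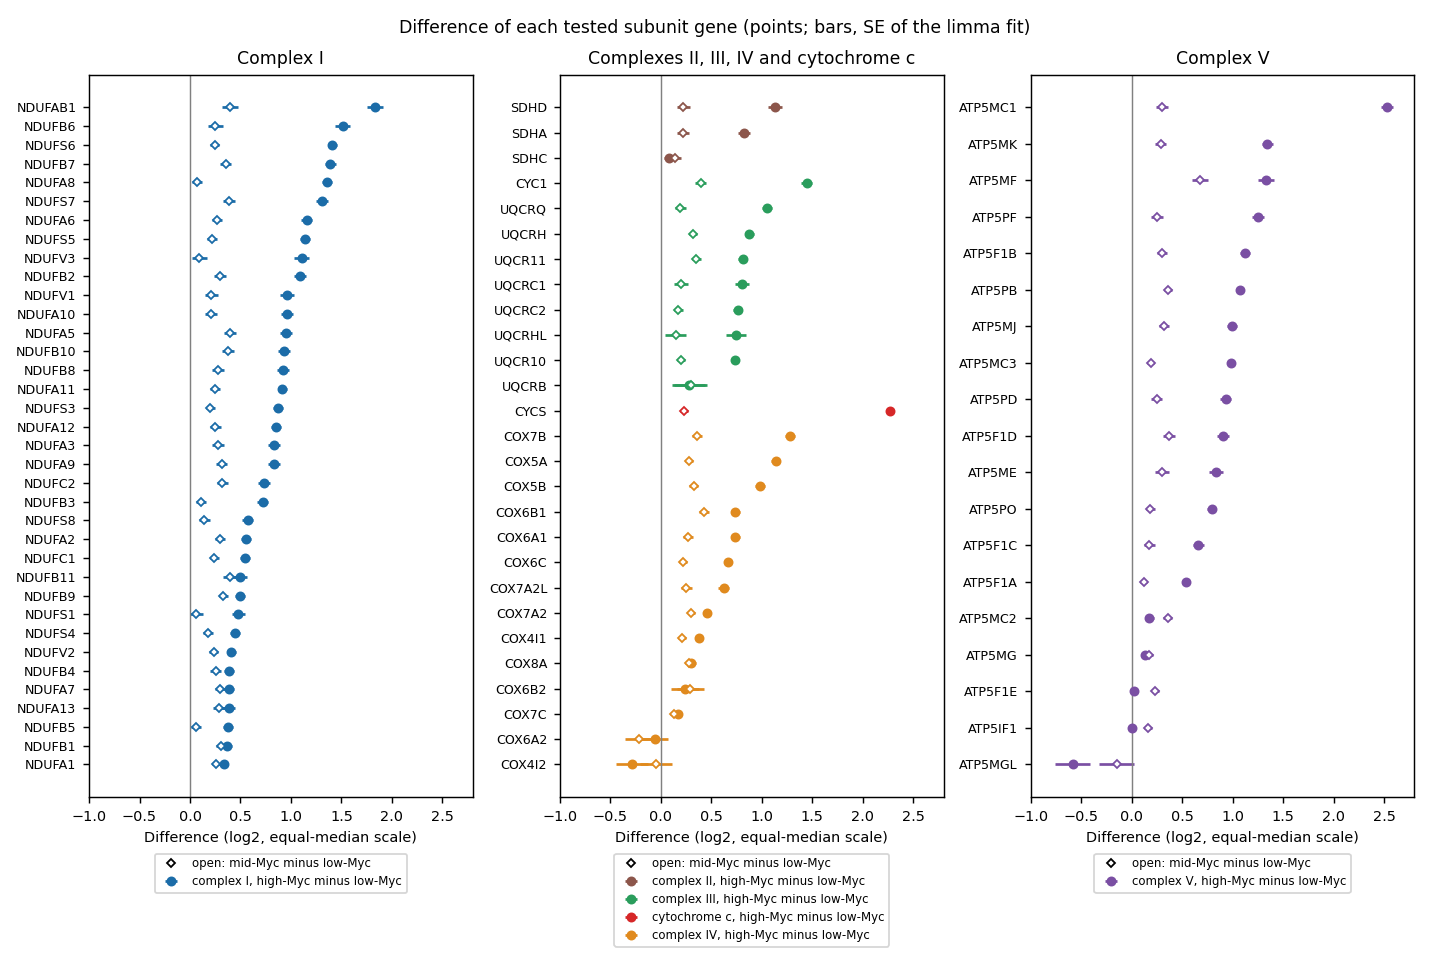
Difference of each of the 82 subunit genes that were tested (log2 on the equal-median scale, x axis), with high-Myc minus low-Myc as filled circles and mid-Myc minus low-Myc as open diamonds; bars are the SE of the limma fit and colours the complexes. ATP5MC1 (2.53) and CYCS (2.27) stand at the right, and the 36 complex I genes run from 0.33 to 1.83 in high-Myc minus low-Myc.

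Complex II, succinate dehydrogenase, also belongs to the citric acid cycle, and its catalytic flavoprotein SDHA and membrane anchors SDHC and SDHD were covered. SDHD had 847 and 763 intensity in low-Myc, 823 and 869 in mid-Myc and 1550 and 1644 in high-Myc, a difference of 1.13 from low-Myc (log2, equal-median). SDHA had 622 and 590 in low-Myc, 647 and 623 in mid-Myc and 965 and 986 in high-Myc, and differed by 0.83 between high-Myc and low-Myc. SDHC, the partner anchor of SDHD, had 715 and 704 in low-Myc, 710 and 702 in mid-Myc and 671 and 695 in high-Myc. Its difference of 0.084 was not called (adjusted p = 0.216, limma), whereas per cell it was 1.20 and called higher. The other SDHC probe sets above the filter gave 0.41, 0.30, 0.28 and 0.12 on the equal-median scale, so the value near 0 is that of 1 probe set.

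In complex III, CYC1, the heme-bearing cytochrome c1 that hands electrons to cytochrome c, led with 906 and 833 intensity in low-Myc, 1060 and 1000 in mid-Myc and 2171 and 2125 in high-Myc. The difference from low-Myc was 1.45 ± 0.055 (log2, equal-median, SE; adjusted p = 5.23e-11, limma). UQCRQ, which binds ubiquinone, had 1979 and 2055 in low-Myc, 2003 and 2159 in mid-Myc and 3780 and 3797 in high-Myc, a difference of 1.05 between high-Myc and low-Myc. CYC1 and UQCRQ were thus high on both high-Myc arrays. The core proteins UQCRC1 and UQCRC2 differed by 0.81 and 0.76. UQCR10 had 3232 and 3105 in low-Myc, 3344 and 3204 in mid-Myc and 4872 and 4729 in high-Myc, a difference of 0.74 between high-Myc and low-Myc. UQCRHL is a near-identical retrogene copy of UQCRH, so their differences of 0.75 and 0.88 may share signal.

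UQCRB was the complex III gene that was not called on the equal-median scale. It had 632 and 1041 intensity in low-Myc, 902 and 890 in mid-Myc and 1015 and 782 in high-Myc, so that the groups overlapped (0.28 ± 0.16, log2, SE; adjusted p = 0.163, limma). Its other 2 probe sets above the filter gave 0.63 and 0.56.

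Complex IV, cytochrome c oxidase, had the lowest median, and its genes split by isoform. The 10 widely expressed subunits all rose, with a median of 0.70 (log2, equal-median). COX7B had 2203 and 2025 intensity in low-Myc, 2430 and 2448 in mid-Myc and 4658 and 4636 in high-Myc, a difference of 1.28 from low-Myc. COX5A, a matrix-side subunit, had 2113 and 2062 in low-Myc, 2305 and 2261 in mid-Myc and 4139 and 4195 in high-Myc, a difference of 1.14 between high-Myc and low-Myc. Both stood high on the high-Myc arrays. COX6A1 had 4833 and 5288 intensity in low-Myc, 5359 and 5605 in mid-Myc and 7933 and 7386 in high-Myc. COX6B1 had 3397 and 3159 in low-Myc, 3932 and 4022 in mid-Myc and 5112 and 4821 in high-Myc. COX6A1 and COX6B1 each differed by 0.74 between high-Myc and low-Myc.

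COX7A2 had 4109 and 4103 intensity in low-Myc, 4539 and 4592 in mid-Myc and 5110 and 5104 in high-Myc, a difference of 0.45 between high-Myc and low-Myc (log2, equal-median). COX7A2L, a factor of respiratory supercomplexes, had 1078 and 1068 in low-Myc, 1113 and 1188 in mid-Myc and 1508 and 1491 in high-Myc, a difference of 0.62. In both genes the high-Myc arrays were the highest. COX8A had 2865 and 2788 in low-Myc, 3066 and 3104 in mid-Myc and 3173 and 3157 in high-Myc, a difference of 0.30, which was 0.033 and not called with quantile normalization.

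COX7C, the brightest of the complex IV probe sets, had 8347 and 8393 intensity in low-Myc, 8431 and 8052 in mid-Myc and 8725 and 8336 in high-Myc. The groups overlapped as deposited, and the difference on the equal-median scale was 0.17 (adjusted p = 4.37e-04, limma). It turned to -0.040 with quantile normalization and to -0.037 with arrays centred on the tested genes, and neither was called. COX4I1 had 3479 and 3416 in low-Myc, 3533 and 3662 in mid-Myc and 4117 and 4010 in high-Myc. It differed by 0.38 between high-Myc and low-Myc through this probe set, and its others gave 0.58 and -0.82. With quantile normalization or the mean of the probe sets it was not called, at 0.076 and 0.046.

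The isoforms of restricted tissues were dim. COX4I2, known from lung, had 39.4 and 39.9 intensity in low-Myc, 36.8 and 32.2 in mid-Myc and 31.7 and 27.6 in high-Myc. COX6A2, the heart and muscle isoform, had 65.6 and 70.4 in low-Myc, 60.1 and 46.1 in mid-Myc and 64.5 and 54.3 in high-Myc. COX6B2, the testis isoform, had 45.2 and 49.6 in low-Myc, 51.1 and 53.6 in mid-Myc and 46.7 and 55.2 in high-Myc. None of these 3 was called in high-Myc against low-Myc on the equal-median scale (adjusted p = 0.136, 0.723 and 0.138, limma). The 23 background probe sets of the array had means of 4.23 to 694 intensity, with 194 for the second brightest. That range also holds the low-Myc levels of other genes in this report. Examples are ATP5MC1, NDUFS7 and SDHA, which were above the second brightest background probe set. Others are NDUFAF2, BCS1L, PPRC1 and NRF1, given with the companion lists, which were below it. The background probe sets are named by GC number, and the brightest has the highest number.

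**Figure D3:**
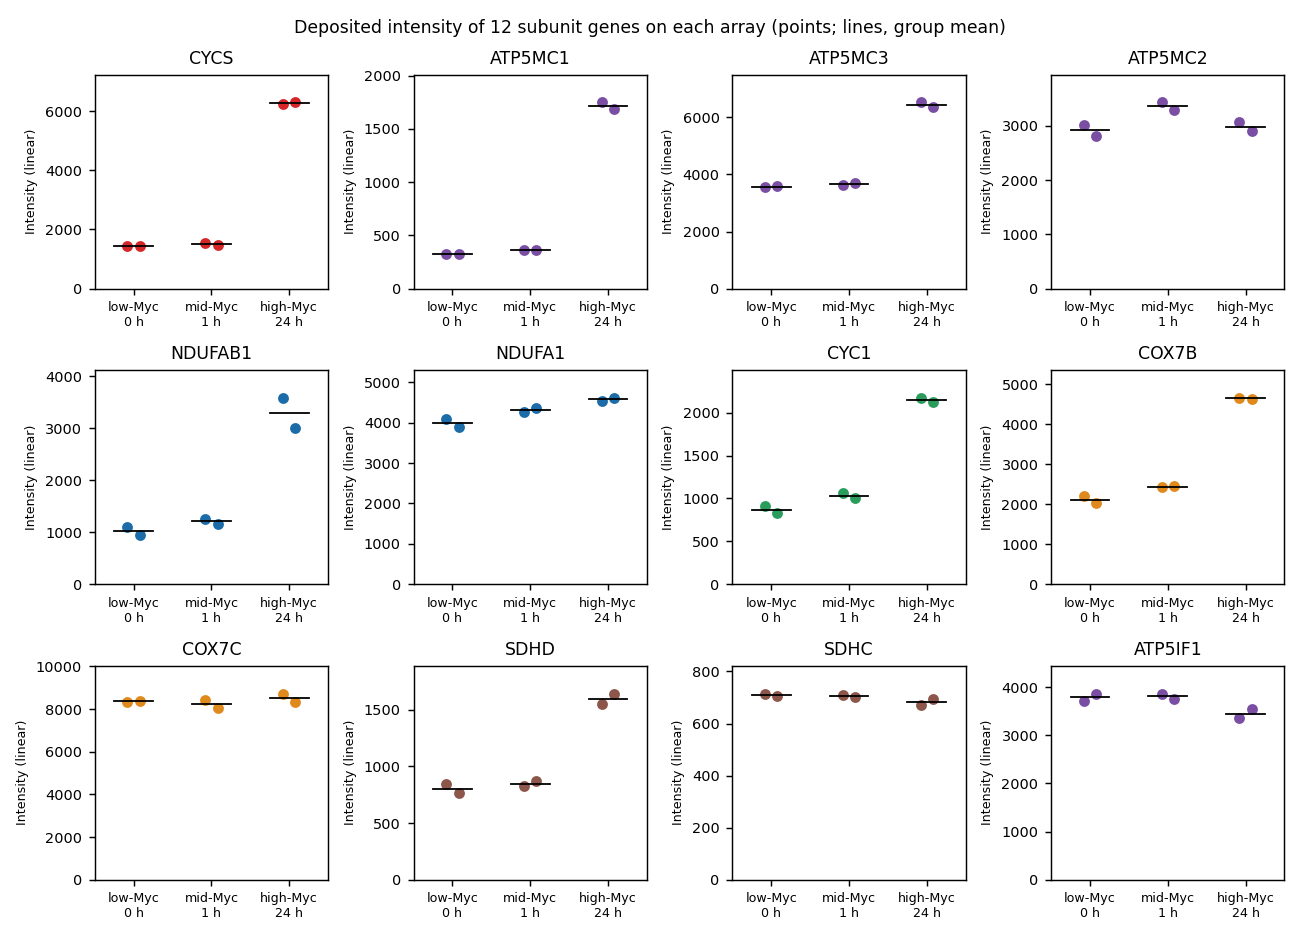
Deposited intensity (linear axis from 0) of 12 subunit genes on each of the 6 arrays, with points for arrays and lines for group means, in the order low-Myc, mid-Myc and high-Myc. CYCS, ATP5MC1, NDUFAB1, CYC1, COX7B and SDHD are high on both high-Myc arrays, while ATP5MC2, COX7C, SDHC and ATP5IF1 stay close to their low-Myc values.

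In complex V, the catalytic F1 head is made by ATP5F1A and ATP5F1B, the alpha and beta subunits. ATP5F1B had 4803 and 4948 intensity in high-Myc, against 2589 and 2348 in low-Myc, a difference of 1.12 (log2, equal-median). ATP5F1A had 6513 and 6772 in high-Myc, against 5066 and 5002 in low-Myc, a difference of 0.54. Both rose, and the groups did not overlap. In the central stalk, ATP5F1D differed by 0.91, ATP5F1C by 0.66 and ATP5F1E by 0.022. The 4 peripheral stalk genes ATP5PB, ATP5PD, ATP5PF and ATP5PO all rose, with a median of 1.00.

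The largest and one of the smallest differences in complex V were found in the c-ring, the proton-driven rotor. ATP5MC1, ATP5MC2 and ATP5MC3 encode the same mature c subunit with different import sequences. ATP5MC1 had 329 and 327 intensity in low-Myc, 367 and 362 in mid-Myc and 1749 and 1686 in high-Myc. Its difference in high-Myc against low-Myc was 2.53 ± 0.056 (log2, equal-median, SE; 5.76-fold, adjusted p = 6.42e-13, limma), larger than for 99.6% of the genes tested.

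ATP5MC3 had 3559 and 3585 intensity in low-Myc, 3630 and 3703 in mid-Myc and 6522 and 6347 in high-Myc, a difference of 0.99 from low-Myc (log2, equal-median). ATP5MC2 had 3021 and 2810 in low-Myc, 3431 and 3299 in mid-Myc and 3069 and 2905 in high-Myc, a difference of 0.17 from low-Myc in high-Myc. For ATP5MC2 the high-Myc and low-Myc arrays overlapped as deposited, and both mid-Myc arrays were above them. Its difference from low-Myc turned to -0.10 with quantile normalization and to -0.029 with arrays centred on the tested genes, and neither was called.

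A factor common to an array cancels when 2 genes are set against each other on it. ATP5MC1 changed by 2.91-fold more than ATP5MC3 and by 5.11-fold more than ATP5MC2 in high-Myc against low-Myc. ATP5MC3 changed by 1.76-fold more than ATP5MC2. The exact two-sided permutation p was 0.333 for each pair, the smallest that 2 arrays against 2 allow. The other ATP5MC3 probe sets gave larger differences of 1.22, 1.46 and 1.56 on the equal-median scale. With the mean of its probe sets, ATP5MC1 changed by 1.22 more than ATP5MC3 (log2), against 1.54 with the brightest.

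Of the small membrane subunits, ATP5MK had 1663 and 1516 intensity in low-Myc, 1818 and 1678 in mid-Myc and 3803 and 3522 in high-Myc, a difference of 1.34 between high-Myc and low-Myc (log2, equal-median). ATP5MF had 3733 and 3579 intensity in high-Myc, against 1411 and 1807 in low-Myc, a difference of 1.33. Both were well apart between these groups. ATP5MG had 5221 and 5233 in low-Myc, 5342 and 5264 in mid-Myc and 5395 and 5047 in high-Myc. Its difference of 0.14 between high-Myc and low-Myc, with overlapping values as deposited, turned to -0.11 with quantile normalization and was then called lower. The other ATP5MG probe sets, at 915 and 843 intensity, gave 0.72 and 0.75 on the equal-median scale. ATP5MGL, a dim copy of ATP5MG, had 42.9 and 57.1 in low-Myc, 44.7 and 36.1 in mid-Myc and 31.9 and 28.1 in high-Myc. It was the gene called lower (-0.58, adjusted p = 0.00866, limma), and without the second low-Myc array no gene was called lower.

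ATP5IF1, the inhibitor of ATP hydrolysis by complex V, had 3722 and 3853 intensity in low-Myc, 3870 and 3762 in mid-Myc and 3353 and 3543 in high-Myc. ATP5F1E had 5600 and 5533 in low-Myc, 5993 and 5826 in mid-Myc and 5166 and 5098 in high-Myc. For both genes the high-Myc arrays were the lowest as deposited, and neither was called on the equal-median scale (0.0033 and 0.022, adjusted p = 0.954 and 0.606, limma). Centred on the tested genes or with quantile normalization, both were lower, at -0.20 and -0.29 for ATP5IF1 and -0.18 and -0.21 for ATP5F1E. Per cell, both rose, by 0.83 and 0.78. The other ATP5IF1 probe sets gave 0.048, 0.19 and 0.53 on the equal-median scale.

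**Figure D4:**
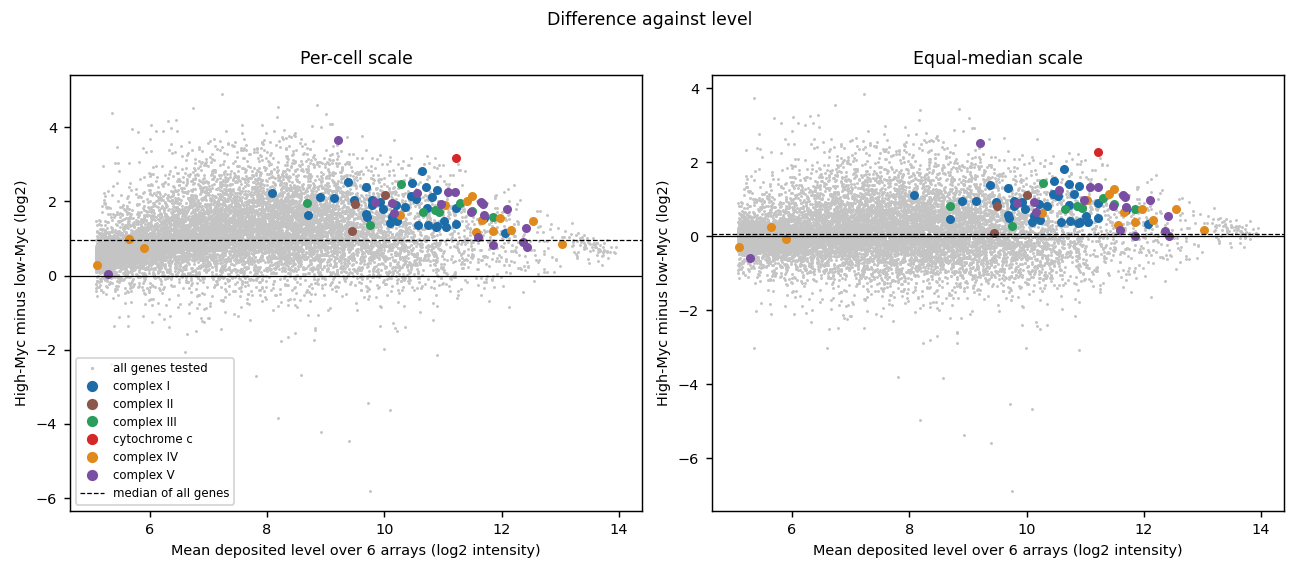
High-Myc minus low-Myc (log2, y axis) against the mean deposited level over 6 arrays (log2 intensity, x axis) on the per-cell scale (left) and the equal-median scale (right); grey points are the 12198 genes tested, coloured points the 82 subunit genes and the dashed line the median of all genes. The subunit genes lie to the right of most genes, and COX7C, the brightest complex IV gene, differs by 0.17 on the equal-median scale.

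The subunit genes had bright probe sets, and 77 of the 82 had a mean above 300 intensity. Across all 82 genes, the Spearman correlation of the difference in high-Myc against low-Myc with brightness was -0.26 on the per-cell scale and -0.083 on the equal-median scale, and Pearson's r was 0.11 and 0.18. Among the 78 above 100 intensity, both correlations were -0.46 on the per-cell scale, and Spearman's was -0.25 and Pearson's -0.26 on the equal-median scale. The sign of Pearson's r thus rests on the 4 dimmest genes. These genes share the same 6 arrays and are not independent, and the values describe these arrays. The part of brightness in the smaller differences of COX7C, ATP5F1E and ATP5MG was not tested.

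After 1 hour, the differences were small and depended on the scaling. On the per-cell scale, 78 of the 82 genes rose and none fell in mid-Myc against low-Myc, where 62.4% of all genes were called higher and 0.697% lower. UQCRB, COX4I2, COX6A2 and ATP5MGL were not called. The median was 0.42 (log2, 1.33-fold), against 0.30 for all genes tested. On the equal-median scale, 68 rose and none fell, where 25.7% of all genes were called higher and 3.39% lower, with a median of 0.25 against 0.091. With quantile normalization, 12 rose and 4 fell, with a median of 0.044, and with cyclic loess 15 rose and 4 fell, with a median of 0.057. No gene reached 2-fold on either scale.

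The equal-median medians in mid-Myc against low-Myc were 0.26 for complex I, 0.22 for complex II, 0.20 for complex III, 0.27 for complex IV and 0.25 for complex V. ATP5MF had the largest difference, 0.67, with 2309 and 2280 intensity in mid-Myc and 1411 and 1807 in low-Myc. That value is of 1 probe set, and the other 3 above the filter gave 0.39, 0.36 and 0.35, below the 0.43 of COX6B1. CYCS and ATP5MC1, which led at 24 hours, differed by 0.23 and 0.30. ATP5MC2 and ATP5MC3 stood in the other order than at 24 hours: ATP5MC2 differed by 0.36 and ATP5MC3 by 0.19. ATP5MC3 was at -0.035 with quantile normalization, and its other probe sets gave 0.22, 0.26 and -0.30 on the equal-median scale. Set against ATP5MC2 on each array, ATP5MC1 changed by -0.056 (log2). Between single arrays that value ran from -0.12 to 0.010, so the order of ATP5MC1 and ATP5MC2 was not resolved.

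High-Myc also stood above mid-Myc. On the equal-median scale, 65 of the 82 genes rose and 4 fell in high-Myc against mid-Myc, where 33.3% of all genes were called higher and 30.9% lower. The median was 0.55 (log2), against 0.025 for all genes tested. The 4 that fell were ATP5MC2 (-0.18), ATP5F1E (-0.21), ATP5IF1 (-0.16) and ATP5MGL (-0.44), all of complex V. On the per-cell scale, 80 rose and none fell, where 81.7% were called higher and 6.57% lower. CYCS differed by 2.04 and ATP5MC1 by 2.23 on the equal-median scale. The 3 comparisons share arrays, so their values are not independent.

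**Figure D5:**
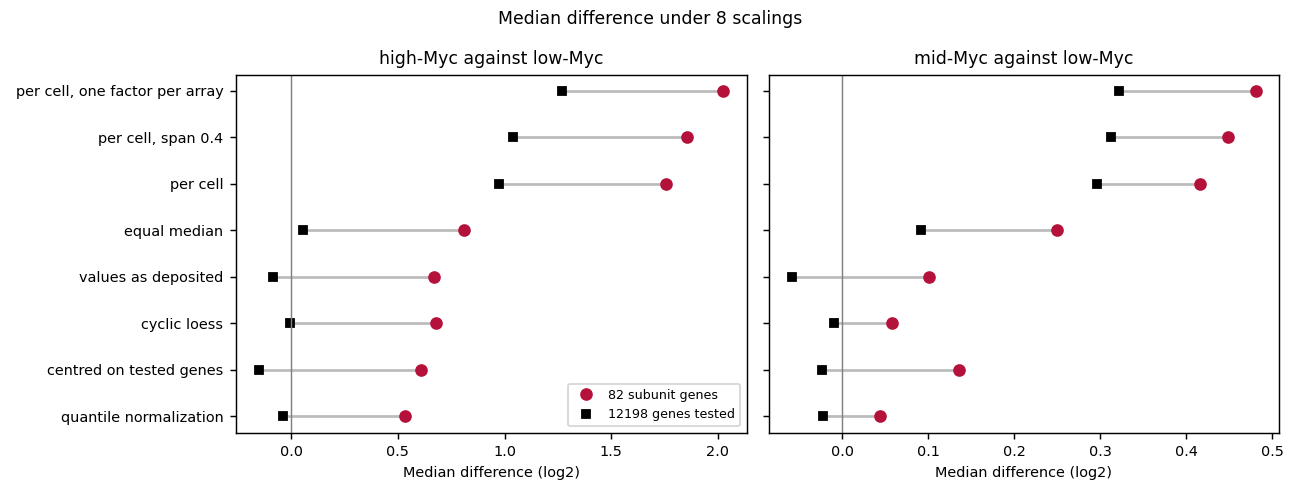
Median difference (log2, x axis) of the 82 subunit genes (circles) and of the 12198 genes tested (squares) under 8 scalings, for high-Myc against low-Myc (left) and mid-Myc against low-Myc (right). The subunit median is above the median of all genes in each, from 0.53 with quantile normalization to 2.03 with one ERCC factor per array in high-Myc against low-Myc, and from 0.044 to 0.48 in mid-Myc against low-Myc.

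Assembly factors, which insert cofactors and join the subunits, were read as a companion list. Of 51 tested, 44 rose and 2 fell in high-Myc against low-Myc on the equal-median scale, with a median of 0.83 (log2), against 37.7% higher, 26.0% lower and a median of 0.054 over all genes tested. NDUFAF2, a complex I assembly factor, had 856 and 895 intensity in high-Myc, against 128 and 120 in low-Myc, a difference of 2.96. BCS1L, which inserts the iron-sulfur protein into complex III, had 616 and 575 in high-Myc, against 130 and 135 in low-Myc, a difference of 2.31. SDHAF3 and COA7 differed by 1.99 and 1.87. The 2 that fell were SURF1 (-0.27), of complex IV assembly, and ATPAF2 (-0.23), of F1 assembly. On the per-cell scale all 51 rose, these 2 included, where 90.8% of all genes were called higher. In mid-Myc against low-Myc, 22 of the 51 rose and none fell, with a median of 0.17, where 25.7% of all genes were called higher and their median was 0.091.

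Regulators of mitochondrial biogenesis and mitochondrial transcription were the second companion list. Of 14 tested, 10 rose and 1 fell in high-Myc against low-Myc on the equal-median scale, with a median of 0.89 (log2), beside the same 37.7% and 26.0% over all genes. PPRC1, a coactivator related to PGC-1, had 445 and 454 intensity in high-Myc, against 95.1 and 107 in low-Myc, a difference of 2.29. TWNK, the mitochondrial DNA helicase, differed by 2.15, and TFB2M, a factor of mitochondrial transcription initiation, by 1.92. NRF1, the factor whose core site was searched, had 89.6 and 83.3 in high-Myc, against 120 and 115 in low-Myc, and fell by 0.30. On the per-cell scale all 14 rose, NRF1 included, where 90.8% of all genes were called higher. In mid-Myc against low-Myc, 4 of the 14 rose, PPRC1 by 0.71, TWNK by 0.65, TFB2M by 0.52 and MTERF1 by 0.28. That share was near the 25.7% of all genes called higher, and the median of the list was -0.0073.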

How the data were processed

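RNA from 6 cultures of P493-6 cells was measured on 6 Affymetrix arrays, 2 per group. The authors deposited linear intensities, 1 per probe set, and MAS5 is the tool named for them, per the submitters' processing notes. Its version and scaling target are not named in the labels. The number of arrays limits the precision, and apart from being called biological duplicates, the cultures are not described as separate.

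All values were taken as log2. For the per-cell scale, robust loess with span 0.7 and degree 1 was fitted to the ERCC spike-ins and removed from every probe set. For the equal-median scale, the median human probe set was subtracted from each array. Of 45278 human probe sets with 1 symbol, 45208 had an Entrez ID in the gene table, which updated the symbols. Those with several symbols (1333) or none (2682) were not named. A gene was tested when its mean passed the 40th percentile of human probe sets. limma 3.58.1 in R 4.3.3 fitted all 6 arrays together with the prior variance as a trend of level. Two-sided p-values were adjusted over 12198 genes by Benjamini-Hochberg at a threshold of 0.05. The code was tested on simulated data. Replicate numbers did not pair the arrays: deviations of same-numbered arrays correlated between -0.01 and 0.02.

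The members and lists were chosen with earlier results of these data known. Values of every array are given for the 2 largest and 2 smallest differences per complex, CYCS, CYC1, the tested isoform sets and genes lower or not called. Some other genes were added afterwards, with the values of 2 groups or the difference alone. Alternatives were run for the choice of probe set, the filter, the pseudocount, the variance trend, a replicate block, fits of only 2 groups, single arrays left out, the ERCC curve and 4 normalizations.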

Additional observations from a re-analysis of the deposited data

How the results depend on the processing

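No per-cell difference that was called in the main fit changed sign under the alternatives run, in any of the 3 comparisons. Values near 0 that were not called can change sign without being counted here. Among them were those of ATP5MGL, at 0.042 in high-Myc and 0.0038 in mid-Myc against low-Myc (log2, per cell). The per-cell median of the members moved in high-Myc against low-Myc to 2.03 with one ERCC factor per array, 1.85 with span 0.4, 1.79 with the filter at the 60th percentile, 1.72 with no filter and 1.70 with the mean of the probe sets. In mid-Myc against low-Myc it moved to 0.48 with one factor and 0.45 with span 0.4. In high-Myc against mid-Myc it moved to 1.54, 1.45, 1.39 and 1.28 with one factor, span 0.4, the 60th percentile and the mean of the probe sets.

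On the equal-median scale, the members called higher in high-Myc against low-Myc were 65 with quantile normalization, and 71 to 75 under the other alternatives. Those called lower were 5 with quantile normalization, 5 with arrays centred on the tested genes, 4 as deposited, 3 with cyclic loess, 2 without the variance trend and 0 with the filter at the 60th percentile. The median was 0.53 with quantile normalization, 0.61 centred on the tested genes, 0.67 as deposited, 0.68 with cyclic loess, 0.74 with the mean of the probe sets and 0.76 with log2(value + 16). Leaving out 1 array at a time, it ran from 0.77 to 0.85, with 0 or 1 member lower. In high-Myc against mid-Myc the median was 0.47 centred on the tested genes, 0.51 with quantile normalization and 0.61 with cyclic loess, and 2 members were lower without the variance trend.

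The 1-hour count depended most on the normalization. In mid-Myc against low-Myc, 12 members were higher and 4 lower with quantile normalization, 15 higher and 4 lower with cyclic loess, 28 higher as deposited, 39 centred on the tested genes and 44 without the variance trend. Leaving out 1 array at a time, 52 to 68 were higher. The medians were 0.044, 0.057, 0.10 and 0.14 for the 4 normalizations in the same order, and 0.21 with log2(value + 16).

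Some single genes changed sign on the equal-median scale, listed where the value was called before or after, and the cause was not tested. In high-Myc against low-Myc, quantile normalization gave ATP5F1E -0.21, ATP5IF1 -0.29, ATP5MC2 -0.10, ATP5MG -0.11, COX7C -0.040 and SDHC -0.14. Centring on the tested genes gave ATP5F1E -0.18, ATP5IF1 -0.20, ATP5MC2 -0.029, ATP5MG -0.067, COX7C -0.037 and SDHC -0.12. Cyclic loess gave ATP5F1E -0.12, ATP5IF1 -0.14 and ATP5MG -0.0074, and the values as deposited gave ATP5F1E -0.12, ATP5IF1 -0.14 and ATP5MG -0.0025.

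In mid-Myc against low-Myc, quantile normalization gave ATP5F1A -0.11, ATP5F1C -0.023, ATP5F1E -0.016, ATP5IF1 -0.063, ATP5MC3 -0.035, ATP5MG -0.086, COX4I1 -0.0054, COX7C -0.12, NDUFA8 -0.14, NDUFB5 -0.15, NDUFS4 -0.022, ATP5PO -0.046, UQCR10 -0.035, UQCRC2 -0.049 and UQCRQ -0.032. Cyclic loess gave ATP5F1A -0.11, ATP5F1C -0.0066, ATP5IF1 -0.058, ATP5MC3 -0.037, ATP5MG -0.059, COX4I1 -0.0078, COX7C -0.12, NDUFA8 -0.13, NDUFB5 -0.14, NDUFS4 -0.0031, ATP5PO -0.033, UQCR10 -0.022, UQCRC2 -0.027 and UQCRQ -0.013. NDUFA8 and NDUFB5 were called lower under both. As deposited, ATP5F1A was at -0.031 and COX7C at -0.023. With the mean of the probe sets, high-Myc against mid-Myc turned to 0.042 for ATP5IF1, 0.31 for ATP5MG, 0.34 for UQCRB and -0.38 for COX4I1. COX4I1 over COX4I2 then turned to -0.14 in high-Myc against mid-Myc, and COX7A2 over COX7A2L to -0.034 in mid-Myc against low-Myc. Sign changes were counted where the value was called before or after. Over all 82 members, there were 18 in high-Myc against low-Myc, 31 in mid-Myc against low-Myc and 4 in high-Myc against mid-Myc. Values called neither before nor after were left out of these counts.

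With the replicate block, 74 members were higher and 1 lower in high-Myc against low-Myc, 68 higher in mid-Myc against low-Myc, and 65 higher and 4 lower in high-Myc against mid-Myc on the equal-median scale. It changed no count of members called. With 2 arrays per group and no detection calls, values near background carry no firm difference.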

Other observations

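The 6 probe sets listed for a subunit gene and another gene were left out of the comparisons above. The 1 shared by NDUFB8 and SEC31B had 3171 and 3366 intensity in high-Myc, against 1706 and 1686 in low-Myc, a difference of 1.09 (log2, equal-median), beside 0.92 for the probe set of NDUFB8 alone. The 1 shared by ATP5MF and PTCD1 differed by 0.91, beside 1.33 for ATP5MF alone. Those shared by SDHA and its pseudogenes differed by 0.68 and 0.55, beside 0.83 for SDHA alone.

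Probe sets of a gene did not always move alike. Of 49 members with more than 1 probe set above the filter, all had the same sign in 45 in high-Myc against low-Myc and in 38 in mid-Myc against low-Myc on the equal-median scale. On the per-cell scale the counts were 49 and 46. The 4 genes with mixed signs in high-Myc against low-Myc were COX4I1, COX6B2, NDUFA13 and NDUFB4. The 2 brightest NDUFB4 probe sets, each with a mean of 1917 intensity, held identical differences.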
